A study of Homo sapiens with 18 samples.

Results

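The cytosolic ribosomal protein genes encode the proteins of the ribosome that translates nuclear messages. The genes were taken by symbol: protein-coding genes named RPL or RPS with a number and at most 1 further letter A, X or L, together with RPSA, RPLP0, RPLP1 and RPLP2, without pseudogenes and Y-linked copies. They came to 81 of the 62649 gene IDs in the count tables, 32 of the small and 49 of the large subunit. Messenger RNA was sequenced from 2 human lines labelled wild type, the lung carcinoma line A549 of alveolar origin and the immortalised bronchial line BEAS-2B. Cells on inserts of 24 mm, seeded 24 h earlier at 400000 (A549) or 500000 (BEAS-2B), were kept for 4 h at an air-liquid interface in clean air, the control, or in wood smoke that was either complete or filtered. There were 3 libraries in each of the 6 groups, and all groups shared the flow of 100 mL/min, the 85% relative humidity and HEPES-buffered medium below the insert. Each line stands for 1 cell source, and nothing in the labels says whether the libraries of a group came from separate exposures, so a p-value here covers only how far these libraries vary, and that variation may be technical.

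Each ribosome carries 1 copy of nearly every ribosomal protein, and cells make these proteins in matched amounts. Most of their messages begin with a 5′ terminal oligopyrimidine (TOP) tract, a cytosine followed by a run of C and T, through which LARP1 and the kinase complex mTORC1 set how well they are stored and translated. The messages are short, abundant and long-lived, and growing epithelial lines devote a large share of their mRNA to them.

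A TOP tract was searched for at the start given by RefSeq (GRCh38.p14), as a C no more than 5 bases from that start, followed by at least 4 bases that are each C or T, on the gene's own strand. RefSeq held a start region for 64 of the 81 genes, and 50 of those (78.1%) had the tract, against 22.0% of other protein-coding genes and 21.1% of all start regions in the table. The sequences below run from 10 bases before the start to 20 after it, 5′ to 3′, with the tract in capitals. RPLP1, RPLP2, RPL39, RPS27 and RPS6 are shown because they rose in both lines, RPL22, RPL36A and RPS10 because they did not, and RPS27L as a gene with no such tract at its listed start.
RPLP1: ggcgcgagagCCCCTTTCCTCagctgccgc
RPLP2: tcggcgCCTTCCTTTTCCTCCCTgtcgcca
RPL39: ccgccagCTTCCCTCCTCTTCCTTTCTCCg
RPS27: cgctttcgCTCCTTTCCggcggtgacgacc
RPS6: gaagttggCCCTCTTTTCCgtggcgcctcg
RPL22: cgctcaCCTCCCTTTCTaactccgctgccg
RPL36A: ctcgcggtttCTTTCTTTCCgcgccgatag
RPS10: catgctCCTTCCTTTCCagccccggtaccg
RPS27L: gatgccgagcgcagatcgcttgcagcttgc
These windows are at chr15:69452808-69452837 on the plus strand (RPLP1), chr11:809957-809986 on the plus strand (RPLP2), chrX:119791611-119791640 on the minus strand (RPL39), chr1:153990752-153990781 on the plus strand (RPS27), chr9:19380217-19380246 on the minus strand (RPS6). The other windows are at chr1:6199576-6199605 on the minus strand (RPL22), chrX:101391001-101391030 on the plus strand (RPL36A), chr6:34426050-34426079 on the minus strand (RPS10), chr15:63157458-63157487 on the minus strand (RPS27L).

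Among the tested genes with a listed start, the 50 with the tract had a median log2 fold change of 0.81 (A549 complete), 1.03 (A549 filtered), 1.89 (BEAS-2B complete) and 1.75 (BEAS-2B filtered) against clean air. The 13 without it had medians of 0.77, 0.96, 1.78 and 1.70 in the same order. The tract was thus found both in genes that rose and in RPL22, RPL36A and RPS10, which did not. The values of RPL36A and RPS10 are uncertain, because they share most of their exons with other genes. The medians with and without the tract lay close together in these libraries. The search covers only the listed start, and RPL27, RPL9 and RPS26, counted as without the tract, hold such a run further along. Whether the tract matters for the rise was therefore not tested.

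The libraries differed in ways that bear on every value below. Counts assigned to genes ran from 14438397 to 21432089 in A549 and from 28532235 to 55032499 in BEAS-2B. In BEAS-2B, clean-air replicate 1 stood apart from the other clean-air libraries, complete-smoke replicate 3 had 31.7% multimapping reads and 12.6% of its uniquely mapped reads outside genes, and filtered-smoke replicate 3 had 19.2% multimapping reads. Multimapping moved with smoke: its share was 9.63 to 10.2% in clean air and 10.3 to 12.0% in smoke in A549, and 7.69 to 9.08% and 10.2 to 31.7% in BEAS-2B, with no overlap in either line. Its part in the results was not tested. In A549, replicate 3 of both smoke groups lay nearest to clean air. All 5 epithelial markers, led by KRT8 and KRT18, passed a median of 1 CPM (counts scaled to a common library total within a line) in both lines. Of 7 alveolar type 2 markers only ABCA3 passed in A549, with SFTPA1 at 0 in every library, and 2 passed in BEAS-2B. Of 5 bronchial basal markers 1 passed in A549 and 5 in BEAS-2B, and of 6 ciliated and secretory markers 4 and 1. Of 10 blood, endothelial and fibroblast markers 1 passed in A549 and 3 in BEAS-2B, led by COL1A1. Summed over those 10, of which COL1A1 made up nearly all, the level lay between 29.5 and 50.2 CPM in clean air and between 9.70 and 25.3 in smoke in A549, and in BEAS-2B between 447 and 753 and between 191 and 415. DCN did not follow it in BEAS-2B, at 1.07, 1.59 and 1.61 CPM in clean air and 0.963, 2.93 and 2.24 in complete smoke. The summed basal markers of A549 were also lower in smoke (7.32 to 13.1 CPM against 16.9 to 21.7). The summed epithelial markers, mostly KRT8 and KRT18, were higher without overlap in filtered smoke of both lines (A549 8302 to 15518 against 6124 to 7838 CPM, BEAS-2B 5345 to 9416 against 1845 to 5006). In BEAS-2B the summed ciliated and secretory markers, in smoke nearly all DNAH5, were higher in both smokes (4.47 to 5.88 against 3.35 to 4.01). Its summed basal markers, mostly KRT17, were higher in filtered smoke (1080 to 2087 against 437 to 919). Single markers of these lists went the other way in BEAS-2B. From clean air to filtered smoke, CDH1 went from 14.7, 27.0 and 22.4 CPM to 6.81, 9.57 and 8.43, and TP63 from 4.34, 10.1 and 8.51 to 2.28, 2.26 and 2.54. MUC5AC had 1.27, 1.48 and 1.85 CPM in clean air and at most 0.0296 in either smoke. The other sums overlapped between smoke and clean air. Their part in the results was not tested.

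Ribosomal protein genes took a larger share of the gene counts after either smoke in both lines. In A549 the share was 4.62, 4.57 and 4.73% in the clean-air libraries 1 to 3, 8.16, 8.18 and 5.77% in complete smoke, and 9.94, 8.93 and 6.14% in filtered smoke. In BEAS-2B it was 14.6, 7.58 and 7.63% in clean air, 25.9, 22.4 and 20.9% in complete smoke, and 24.5, 20.8 and 19.8% in filtered smoke. Every smoke library lay above every clean-air library of its line. A share cannot tell more ribosomal protein mRNA from less of other mRNA, and in bulk samples a change in the cells present and a change in RNA per cell cannot be told apart.

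**Figure D1:**
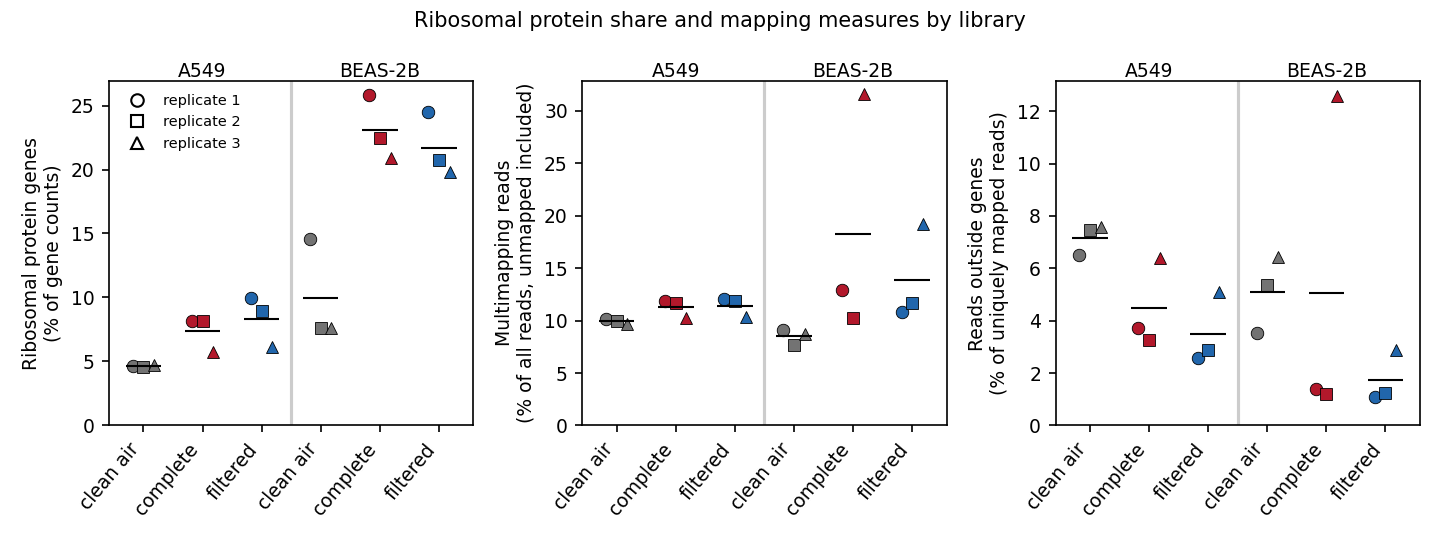
Share of gene counts in the 81 ribosomal protein genes, share of all reads that mapped to several places, and share of uniquely mapped reads outside genes, for each of the 18 libraries (bars: group means; circle, square and triangle: replicates 1, 2 and 3). The ribosomal protein share is 4.57 to 4.73% in A549 clean air and reaches 25.9% in BEAS-2B complete smoke, and the multimapping share stands out at 31.7% in BEAS-2B complete-smoke replicate 3.

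Reads outside genes were fewer in most smoke libraries. They made up 6.49 to 7.56% of uniquely mapped reads in A549 clean air, 3.73, 3.27 and 6.41% in complete smoke and 2.56, 2.86 and 5.09% in filtered smoke, so the 2 replicates 3 with the smallest rise in ribosomal protein share were also nearest to clean air here. In BEAS-2B, clean-air replicate 1 had 3.51%, against 5.37 and 6.41% in the other clean-air libraries, and all smoke libraries but complete replicate 3 had between 1.09 and 2.90%. The part of this in the results was not tested.

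Of the 81 genes, 78 passed the filter on low counts in each line. RPL3L and RPL10L, copies of RPL3 and RPL10 known from muscle and testis, did not, with at most 6 counts in any library. Tests were run on whole tables with edgeR's quasi-likelihood test and Benjamini-Hochberg adjustment, and a gene is said to have risen or fallen when its adjusted p was under 0.05. Levels of a gene are CPM after TMM scaling within a line, and changes are log2 fold changes with the standard error (SE).

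In A549 complete smoke, 67 of the 78 tested genes rose and 0 fell, with a median log2 fold change of 0.81, about 1.75-fold, against 0.02 over all 15244 tested genes. Of all tested genes, 15.6% rose and 16.9% fell. The changes were close to one another, with the interquartile range of the 78 genes between 0.76 and 0.87. All 3 smoke libraries lay above all 3 clean-air libraries for 75 of the 78 genes, against 25.3% of all tested genes. The count rests on few libraries. Without complete-smoke replicate 1, 2 or 3 it was 3, 0 and 74, and without clean-air replicate 1, 2 or 3 it was 2, 0 and 4, while the median stayed between 0.71 and 0.98. The number called over all tested genes also moved, between 1422 and 7021 with 1 library left out, against 2371 risen and 2580 fallen with all. With the sample number as a replicate block 75 rose (27.3% of all genes), all but RPL17, RPS10 and RPL36A.

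In A549 filtered smoke, 73 of the 78 genes rose and 0 fell, with a median of 1.02, against 23.1% of all tested genes that rose and 23.5% that fell. The interquartile range lay between 0.95 and 1.10. Smoke and clean-air libraries did not overlap for 74 of the 78, against 27.6% of all genes with smoke above clean air. Without any 1 of the 9 libraries between 59 and 76 passed, and between 4006 and 9015 of all tested genes. With the replicate block 76 rose (30.4% of all genes) and 1, RPL36A, fell (31.3%).

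In BEAS-2B the changes were larger in size. In complete smoke 75 of 78 genes rose and 0 fell, with a median of 1.86, about 3.64-fold, against -0.06 over all 16356 tested genes, of which 21.5% rose and 19.5% fell. In filtered smoke 75 rose and 0 fell too, with a median of 1.75, against 23.6% of all genes that rose and 24.9% that fell. In complete smoke 74 genes had every smoke library above every clean-air library (24% of all genes), and 75 in filtered smoke (29.1%). The replicate block left 75 in each (30.4 and 31.9% of all genes). Leaving out clean-air replicate 1, the library with the highest share among the controls, moved the medians to 2.48 and 2.37 and the counts to 75 and 76. Leaving out clean-air replicate 2 or 3 gave 46 and 46 genes in complete smoke and 45 and 45 in filtered smoke. With 1 library left out at a time, 2916 to 9026 of all tested genes passed in complete and 3652 to 9276 in filtered smoke. Without clean-air replicate 1 and complete replicate 3 together, 76 rose in both comparisons, and the medians were 2.63 and 2.38. The number over all tested genes is not set beside that count. Scaled by library size alone the medians were 1.23 and 1.13, against -0.75 and -0.74 over all genes.

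**Figure D2:**
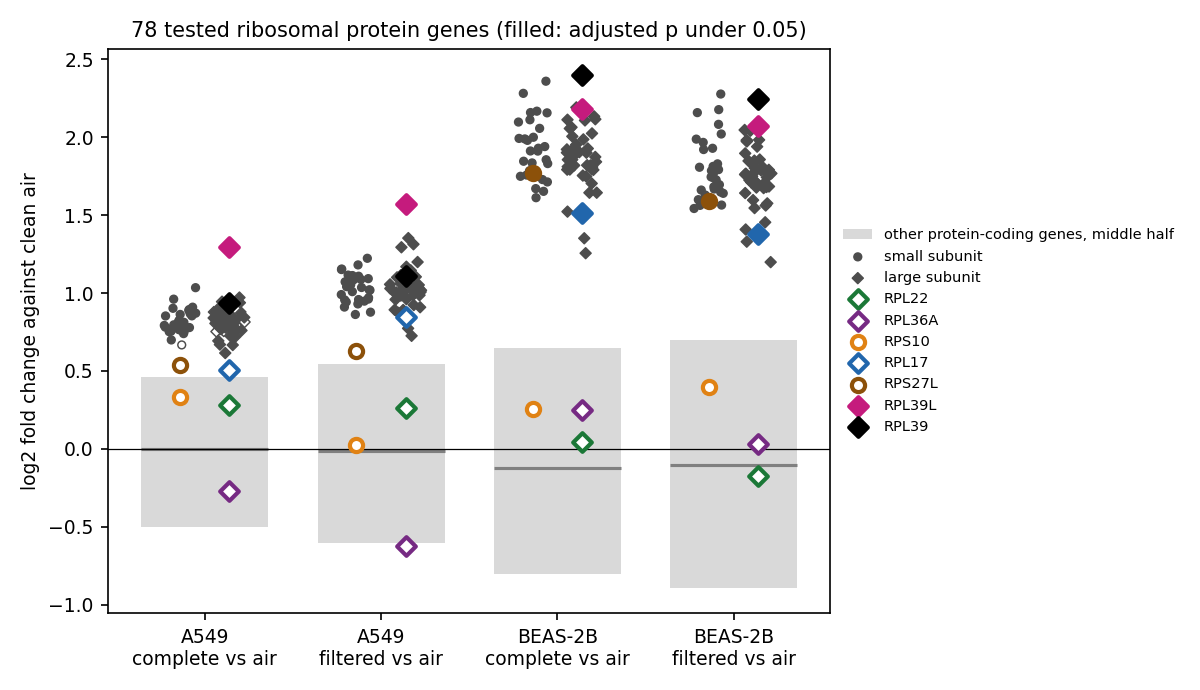
Log2 fold change against clean air of each of the 78 tested ribosomal protein genes (circles: small subunit; diamonds: large subunit; filled: adjusted p under 0.05; colours: named genes), with the interquartile range of other protein-coding genes in grey. The genes form a tight band around 0.81 and 1.02 in A549 and around 1.86 and 1.75 in BEAS-2B, with RPL22, RPL36A and RPS10 below it in all 4 comparisons.

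The subunits had similar values. The 31 tested small-subunit genes had medians of 0.80, 1.02, 1.91 and 1.75 (A549 complete, A549 filtered, BEAS-2B complete, BEAS-2B filtered) and the 47 of the large subunit 0.81, 1.02, 1.86 and 1.76. In the same order 27, 29, 30 and 30 small-subunit genes and 40, 44, 45 and 45 large-subunit genes rose. These comparisons share the clean-air libraries of a line, and their values are set side by side only.

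The stalk of the large subunit, which recruits translation factors, is built from RPLP0, RPLP1 and RPLP2. RPLP0 (chromosome 12, 120196686 to 120201235, minus strand, GRCh38) measured 1536, 1457 and 1554 CPM in A549 clean air, 2908, 3161 and 2091 in complete smoke, and 3819, 3307 and 2193 in filtered smoke. In BEAS-2B it measured 3519, 1548 and 1502 in clean air, 10800, 7629 and 6224 in complete smoke, and 10020, 7382 and 6276 in filtered smoke. In each line the lowest smoke library was above the highest clean-air library, and replicate 3 was the lowest of each smoke group. RPLP0 rose by 0.84 (SE 0.23, adjusted p = 0.0218), 1.04 (SE 0.23, adjusted p = 0.00672), 1.91 (SE 0.41, adjusted p = 0.00873) and 1.85 (SE 0.41, adjusted p = 0.00881) in A549 complete, A549 filtered, BEAS-2B complete and BEAS-2B filtered smoke.

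RPLP1 (chromosome 15, 69452784 to 69456194, plus strand) was among the largest risers, with 1034, 1014 and 997 CPM in A549 clean air against 3125, 2895 and 1544 in filtered smoke, a change of 1.31 (SE 0.28, adjusted p = 0.00566). In BEAS-2B it went from 2856, 976 and 865 CPM in clean air to 10510, 6149 and 4797 in complete smoke, a change of 2.19 (SE 0.54, adjusted p = 0.0137). Clean air and smoke did not overlap, but clean-air replicate 1 of BEAS-2B stood well above the other clean-air libraries. RPLP2 changed by 1.35 in A549 filtered smoke (SE 0.32, adjusted p = 0.00867), and in complete smoke its value of 0.90 (SE 0.32) had an adjusted p of 0.0506, just past the threshold, and 0.0036 with the replicate block.

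**Figure D3:**
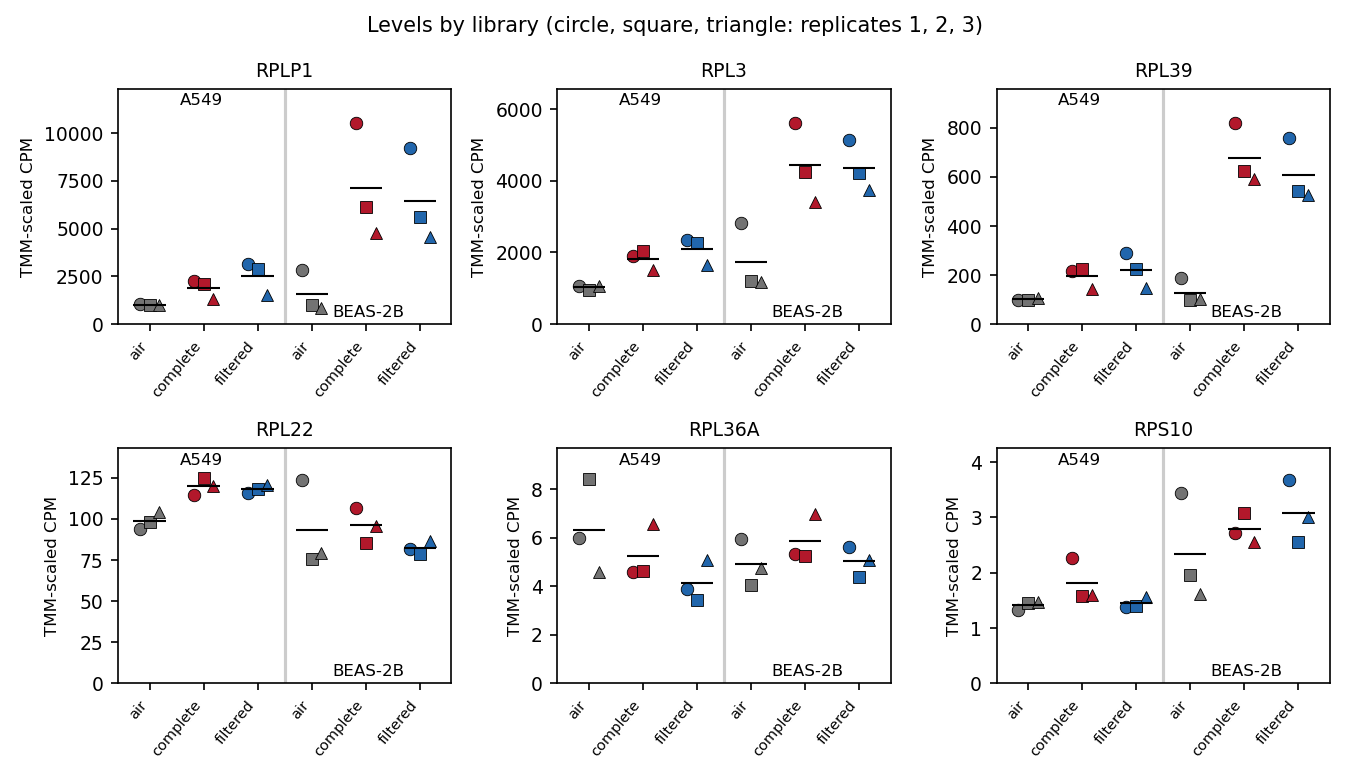
TMM-scaled CPM by library for 6 genes (bars: group means of 3; circle, square and triangle: replicates 1, 2 and 3; each panel starts at 0). RPLP1, RPL3 and RPL39 lie higher in every smoke library than in clean air of the same line, while RPL22, RPL36A and RPS10 do not separate in BEAS-2B.

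RPL39 is a very small protein lining the tunnel through which the new chain leaves, and RPL39L is its copy known from testis and cancer cells. RPL39 (chromosome X, 119786504 to 119791643, minus strand) measured 186, 98.1 and 101 CPM in BEAS-2B clean air, 820, 626 and 591 in complete smoke, and 760, 542 and 525 in filtered smoke. That was the largest rise of any tested ribosomal protein gene in complete smoke, 2.40 (SE 0.32, adjusted p = 0.00213), and 2.24 (SE 0.31, adjusted p = 0.00255) in filtered smoke. In A549 it rose by 0.93 and 1.11 (adjusted p = 0.0206 and 0.0071).

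RPL39L was the largest riser in A549. It went from 10.8, 11.1 and 7.69 CPM in clean air to 29.5, 30.6 and 12.5 in complete smoke and 38.4, 34.4 and 15.4 in filtered smoke, which were changes of 1.29 (SE 0.39, adjusted p = 0.0322) and 1.57 (SE 0.40, adjusted p = 0.0109). In BEAS-2B it rose by 2.18 and 2.08 (adjusted p = 0.00467 and 0.0053). Smoke and clean air did not overlap in either line, and the replicates 3 of the smoke groups in A549 lay nearest to clean air.

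RPS27, a zinc-binding protein of the small subunit, rose by 0.87, 1.11, 2.28 and 2.18 (adjusted p = 0.0435, 0.0128, 0.00303 and 0.00359). Its copy RPS27L, known as a p53 target, measured 224, 276 and 256 CPM in A549 clean air, 362, 473 and 265 in complete smoke and 436, 467 and 267 in filtered smoke. Replicate 3 of both smoke groups lay inside the clean-air range, and its changes of 0.54 (SE 0.25, adjusted p = 0.115) and 0.63 (SE 0.25, adjusted p = 0.0612) did not pass, but did with the replicate block (adjusted p = 0.021 and 0.00724). In BEAS-2B RPS27L went from 58.7, 38.4 and 33.8 CPM to 171, 145 and 129 in complete smoke, a rise of 1.77 (SE 0.26, adjusted p = 0.00263), and rose by 1.59 in filtered smoke (adjusted p = 0.00359). On a scale common to both lines it was also the only tested ribosomal protein gene lower in BEAS-2B than in A549 clean air, at 51.4 against 213 CPM, a ratio of 0.241, while the other 77 had ratios from 1.04 to 8.04. No test of that level difference was made, and clean-air replicate 1 raises the BEAS-2B means.

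Among the other small-subunit genes, RPS29 had 182, 151 and 163 CPM in A549 clean air and 413, 369 and 236 in complete smoke, a rise of 1.03 (SE 0.33, adjusted p = 0.0373). Its rises of 2.36 and 2.28 in BEAS-2B (adjusted p = 0.00473 and 0.00519) were among the 2 largest there. RPS15 rose by 0.96, 1.22, 1.99 and 2.08, and RPS15A by 2.16 in both BEAS-2B comparisons. RPS6, the substrate of S6 kinase used to read out mTORC1 activity, rose by 0.78, 0.95, 1.67 and 1.56 (adjusted p = 0.022, 0.0071, 0.00736 and 0.00837). RPS3, at the mRNA entry channel, rose by 0.75, 0.96, 1.65 and 1.56, RPS4X by 0.74, 0.93, 1.61 and 1.54, and RPSA, also known as the laminin receptor precursor, by 0.75, 0.91, 1.76 and 1.66. RPS27A, which is made fused to ubiquitin, rose by 0.89, 1.08, 2.10 and 1.92. RPS26 (0.67, adjusted p = 0.0794) and RPS7 (0.76, adjusted p = 0.0505) did not pass in A549 complete smoke, passed there with the replicate block (adjusted p = 0.00607 and 0.00353), and rose in the other 3 comparisons.

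RPL5 and RPL11 bind 5S rRNA and, when ribosome assembly fails, the p53 inhibitor MDM2. RPL5 measured 499, 498 and 547 CPM in A549 clean air, 914, 1005 and 722 in complete smoke and 1073, 970 and 785 in filtered smoke. It rose by 0.77 (SE 0.17, adjusted p = 0.0118) and 0.87 (SE 0.17, adjusted p = 0.00458) in A549 and by 1.50 (SE 0.29, adjusted p = 0.00568) and 1.45 (SE 0.29, adjusted p = 0.00604) in BEAS-2B. RPL11 rose by 0.80, 1.03, 1.92 and 1.77 (adjusted p = 0.0351, 0.00961, 0.00603 and 0.00728). In BEAS-2B, RPL5 was thus among the smaller rises and RPL11 near the median.

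RPL3 and RPL4, the longest coding sequences among the tested genes, had the smallest rises that passed in BEAS-2B complete smoke. RPL3, which reaches toward the peptidyl transferase centre, had 2813, 1212 and 1180 CPM in clean air and 5624, 4250 and 3406 in complete smoke, a rise of 1.35 (SE 0.39, adjusted p = 0.0228), and rose by 1.33 in filtered smoke (adjusted p = 0.0212). RPL4 rose by 1.26 and 1.20 (adjusted p = 0.0128 and 0.0132). In A549, RPL3 rose by 0.83 and 1.03 (adjusted p = 0.0112 and 0.00311), near the median, and RPL4 by 0.67 and 0.77.

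RPL10, which completes the large subunit late in assembly, rose by 0.77, 1.01, 1.75 and 1.70 (adjusted p = 0.0293, 0.00732, 0.0107 and 0.0105). RPL41, the shortest of the proteins, rose by 0.76 in A549 complete smoke at an adjusted p of 0.0498 and by 1.06, 2.01 and 1.78 elsewhere. RPL36 rose by 0.97 and 1.29 in A549. Per kilobase of coding sequence, on the scale common to both lines, RPL41 had the highest mean level in A549 clean air (3874 CPM per kb), followed by RPS19 (3257), RPS16 (2896) and RPLP1 (2511), with RPL22 at 217 and RPL39L at 54.6. Because coding length leaves out untranslated bases, this scale raises the shortest genes most.

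Across the genes, the rise was smaller where the coding sequence was longer. Over the 75 tested genes with at least 25% of their transcript unshared, Spearman's rho between coding length and log2 fold change was -0.31 and -0.32 in A549 (complete, filtered) and -0.64 and -0.50 in BEAS-2B. This is a description across genes that share libraries, depth and scaling. With GC content the rho was 0.29, 0.61, 0.08 and 0.23.

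Other genes followed coding length as well. Protein-coding genes outside the set, put in 10 bins of equal size by coding length, had a median log2 fold change in A549 complete smoke of 0.53 in the shortest bin, which ends at 540 bp, and -0.66 in the longest. In BEAS-2B complete smoke the medians were 1.06 and -0.85, and in filtered smoke 0.62 and -0.78 (A549) and 0.99 and -1.06 (BEAS-2B). The shortest bin held 50 of the ribosomal protein genes in A549 and 49 in BEAS-2B. There, other genes with a mean of at least 100 CPM had medians of 0.61 and 0.74 in A549 and 1.49 and 1.42 in BEAS-2B (complete, filtered), against 0.82, 1.04, 1.95 and 1.81 for the ribosomal protein genes of the same bin. Of these abundant short genes 40.6, 64.9, 81.7 and 81.4% rose. A trend with length in these libraries thus moved with the result, and what part it has was not tested. Offsets for GC content and exonic length left 46, 68, 75 and 75 genes risen and medians of 0.64, 0.79, 1.52 and 1.38. Numbers over all tested genes under the offsets are not set beside these counts. A lower count is therefore not a result about the ribosomal protein genes alone. Some annotated transcripts are implausibly long, so exonic length can misstate the length of a message. These offsets may therefore leave the trend in place for the ribosomal protein genes.

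**Figure D4:**
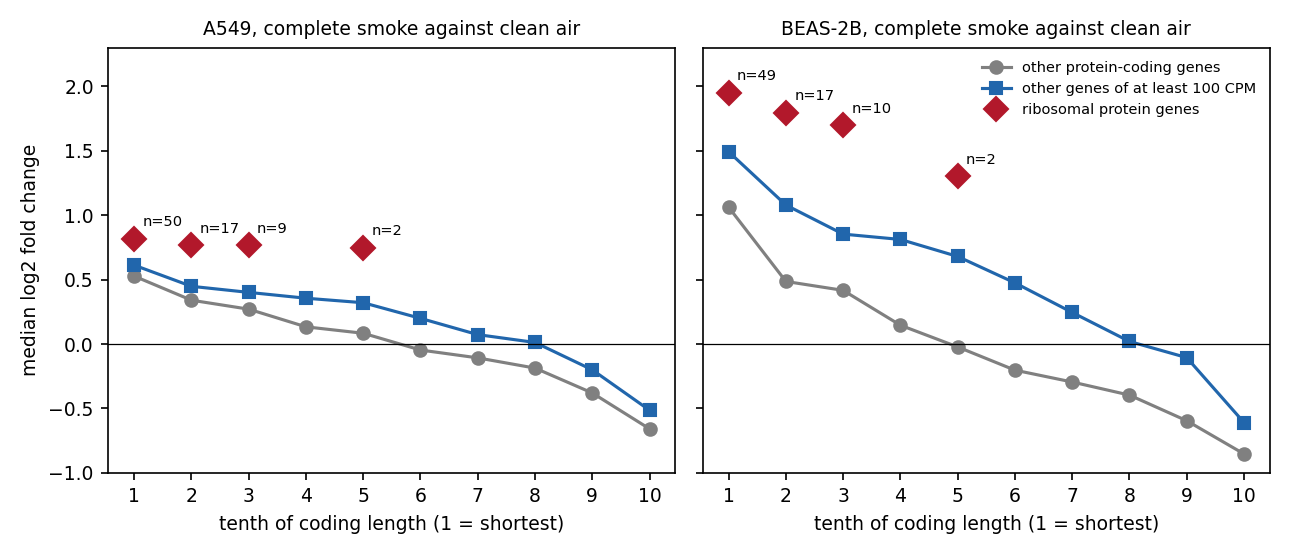
Median log2 fold change in complete smoke by bin of coding length (1: shortest) for other protein-coding genes, for those of at least 100 CPM and for ribosomal protein genes, with the number of ribosomal protein genes in each bin. Medians of other genes fall from 0.53 to -0.66 in A549 and from 1.06 to -0.85 in BEAS-2B, and the ribosomal protein genes lie above them in each bin that holds any.

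RPL22, RPL36A and RPS10 did not pass in any of the 4 comparisons with clean air. RPL22 (chromosome 1, 6185020 to 6209389, minus strand), a protein at the outer face of the large subunit that cells can do without and that binds other RNAs, measured 93.8, 98.0 and 104 CPM in A549 clean air, 114, 125 and 120 in complete smoke and 116, 118 and 121 in filtered smoke. All smoke libraries were higher, but by only 0.28 (SE 0.12, adjusted p = 0.0907) and 0.26 (SE 0.12, adjusted p = 0.0973). In BEAS-2B it measured 124, 75.7 and 79.5 in clean air, 107, 85.4 and 95.9 in complete smoke and 81.6, 78.6 and 86.8 in filtered smoke. Those groups overlapped, and the changes were 0.05 (SE 0.22, adjusted p = 0.872) and -0.18 (SE 0.22, adjusted p = 0.512). Scaled by library size alone, which moved the median of all BEAS-2B genes to -0.75 in complete smoke, RPL22 was lower there (-0.61, adjusted p = 0.0248) and in filtered smoke (-0.81, adjusted p = 0.00837). RPL22 had 1546 to 4395 counts in each library, and 88.9% of its transcript bases lay in no other gene's exons, so its values rest on many reads from mostly unshared exons. With a replicate block it rose in A549 (adjusted p = 0.0391 and 0.0483).

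Its copy RPL22L1, which the symbol rule leaves out, stood differently. RPL22L1 measured 34.1, 24.6 and 23.8 CPM in BEAS-2B clean air and 158, 108 and 95.2 in complete smoke, a rise of 2.13 (adjusted p = 0.00221), and rose by 1.94 in filtered smoke (adjusted p = 0.00283). In A549 it had 56.8, 54.4 and 48.9 CPM in clean air, 139, 112 and 51.2 in complete smoke and 181, 124 and 51.6 in filtered smoke. It rose in filtered smoke by 1.15 (adjusted p = 0.0497), and its change of 0.91 in complete smoke did not pass (adjusted p = 0.12), with replicate 3 of both groups inside the clean-air range. With the replicate block that change passed (adjusted p = 0.0134).

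RPL36A and RPS10, with RPL17, share most of their exons with the read-through genes RPL36A-HNRNPH2, RPS10-NUDT3 and RPL17-C18orf32, so that only 22.4, 16.0 and 8.97% of their transcript bases were their own, and reads in shared exons are not assigned to a gene. RPS10 had 19 to 32 counts per library in A549 and 70 to 128 in BEAS-2B, and RPL36A 53 to 185 and 165 to 216. RPS10 changed by 0.33, 0.02, 0.26 and 0.40 and RPL36A by -0.27, -0.62, 0.25 and 0.03, with adjusted p from 0.0805 to 0.946. With a replicate block RPL36A fell in A549 filtered smoke (adjusted p = 0.0426). RPL17 did not pass in A549 (0.51 and 0.85, adjusted p = 0.281 and 0.0721, the second 0.00677 with the replicate block) and rose in BEAS-2B by 1.52 and 1.38 (adjusted p = 0.00806 and 0.01). The values of these 3 genes come from small stretches of their transcripts and are uncertain. The copy RPL36AL rose by 0.88, 1.58 and 1.44 in A549 filtered and in both BEAS-2B comparisons (adjusted p = 0.0295, 0.0088 and 0.0106), and its 0.73 in A549 complete smoke passed only with the replicate block (adjusted p = 0.0718 without it and 0.0062 with it).

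The other genes that did not pass in A549 complete smoke were RPL27A (0.75, adjusted p = 0.0528), RPL35 (0.76, adjusted p = 0.0759) and RPL37A (0.81, adjusted p = 0.058), each with values close to the median of the set. They passed with the replicate block (adjusted p = 0.00494, 0.00565 and 0.00485). Each rose in A549 filtered smoke and in both BEAS-2B comparisons.

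No ribosomal protein gene passed between complete and filtered smoke. In A549, 0 of 78 genes passed between them, with edgeR, DESeq2 or at an unadjusted p under 0.05, and 0% of all 15244 genes passed. Yet the median was -0.22, and the lowest value was that of RPLP2, at 811, 697 and 432 CPM in complete smoke and 1149, 1026 and 476 in filtered smoke, a difference of -0.45 (SE 0.31, adjusted p = 0.998). In BEAS-2B 0 of 78 passed by the same 3 criteria and 0% of 16356 genes, with a median of 0.13 and the highest value 0.24 for RPS25 (SE 0.33, adjusted p = 1). RPL36A differed by 0.35 (SE 0.27) and RPS10 by 0.31 (SE 0.25) in A549, the 2 highest values there. Same-numbered complete and filtered libraries deviated together in both lines (correlations of 0.48 to 0.80 in A549 and 0.29 to 0.67 in BEAS-2B). In the share of gene counts the filtered library was the higher of its pair in 3 of 3 pairs in A549, and the complete library in 3 of 3 in BEAS-2B. With the replicate block 0 of 78 passed in either line, with medians of -0.20 and 0.12, and of all genes 1 passed in A549 and 0 in BEAS-2B. The missing calls do not show that the smokes acted alike.

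The rise was larger in BEAS-2B than in A549 in size, but with edgeR's quasi-likelihood test on all 18 libraries the difference passed for no gene. As BEAS-2B minus A549, the median of the 78 genes was 1.09 for complete and 0.77 for filtered smoke, against -0.03 over all 17703 genes in each. With edgeR 0 of 78 passed in either, against 0.565 and 0.311% of all genes that were higher and 1.17 and 0.514% that were lower. An unadjusted p under 0.05 was reached by 52 and 15, against 3070 and 2449 of all 17703 genes. DESeq2 called 8 and 0, and its number over all tested genes is not set beside them. RPL39 had the largest difference for complete smoke, 1.48 (SE 0.39, adjusted p = 0.0679), followed by RPS27 (1.43), RPS23 (1.41) and RPS29 (1.35), and RPL22 the lowest, -0.23 (SE 0.23, adjusted p = 0.629). For filtered smoke RPS15A led with 1.32 (adjusted p = 0.155). Only 58.5% of the transcript bases of RPS15A lay in no other gene's exons. RPL22 was lowest at -0.41. RPL3 (0.55 and 0.34) and RPL4 (0.60 and 0.45) were also near the low end.

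With the sample number of each line as a replicate block, the difference between lines was higher for 73 genes in complete smoke (10.3% of all genes) and 66 in filtered smoke (7.94%), with medians of 1.22 and 0.91. Samples with the same number deviated together in every comparison of A549 and in filtered smoke of BEAS-2B, but not in complete smoke of BEAS-2B, where number 2 had a correlation of -0.13. Without BEAS-2B clean-air replicate 1, 65 genes passed for complete smoke and 1 for filtered smoke, and without the filter on low counts 23 and 1. Without BEAS-2B complete-smoke replicate 3 it was 2 for complete smoke, and without A549 filtered-smoke replicate 3 it was 1. Over all tested genes, leaving out 1 library gave 87 to 797 calls for complete and 47 to 224 for filtered smoke. The number over all tested genes without the low-count filter is not set beside these counts.

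The symbol rule leaves out 7 ribosomal proteins or close copies with other names, RPL22L1 and RPL36AL among them. FAU, which is eS30 fused to a ubiquitin-like protein, rose by 0.89, 1.13, 1.80 and 1.67 (adjusted p = 0.0275, 0.00765, 0.0269 and 0.0304), and RACK1, a scaffold on the small subunit, by 0.78 in A549 complete smoke and by 1.75 and 1.73 in BEAS-2B (adjusted p = 0.0245, 0.0127 and 0.0119), and in A549 filtered smoke as well (adjusted p = 0.00637). RPL26L1 had 0.62 and 0.76 in A549, which passed only with the replicate block (adjusted p = 0.0194 and 0.00617), and rose by 1.96 and 1.80 in BEAS-2B. RPL7L1, a nucleolar assembly factor related to RPL7, had -0.25 in A549 complete and -0.54 in BEAS-2B complete smoke (adjusted p = 0.148 and 0.0692, the second 0.00301 with the replicate block), and fell by 0.46 and 0.61 in filtered smoke of A549 and BEAS-2B (adjusted p = 0.0164 and 0.0437).

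Some messages with a TOP tract do not encode ribosomal proteins. Of 14 tested, 9 rose and 0 fell in each comparison with clean air, with medians of 0.50, 0.59, 0.99 and 1.08. The shares of all tested genes that rose were 15.6, 23.1, 21.5 and 23.6%, and 16.9, 23.5, 19.5 and 24.9% fell. The elongation factor subunit EEF1B2 rose by 0.82, 1.02, 1.77 and 1.67 (adjusted p = 0.0236, 0.00691, 0.00551 and 0.0063), and TPT1, a growth-related tumour protein, by 0.73, 0.87, 1.68 and 1.58 (adjusted p = 0.016, 0.00507, 0.00381 and 0.00462). The poly(A)-binding protein gene PABPC1 had 0.11, -0.04, -0.22 and -0.10, and EIF4B 0.00, -0.11, -0.40 and -0.43. Both were picked after their values were seen, and neither passed except EIF4B with the replicate block in BEAS-2B complete and filtered smoke (adjusted p = 0.02 and 0.011).

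Among 17 genes that control these messages some rose and some fell, mostly at shares near those of all tested genes. The numbers risen and fallen were 1 and 5 in A549 complete, 4 and 6 in A549 filtered, 3 and 4 in BEAS-2B complete and 4 and 5 in BEAS-2B filtered smoke. Of all tested genes 15.6 and 16.9%, 23.1 and 23.5%, 21.5 and 19.5%, and 23.6 and 24.9% rose and fell. The replicate block gave 6 and 6 in A549 complete and 5 and 6 in BEAS-2B complete smoke, and over all tested genes 4159 and 4162 and then 4965 and 5350. LARP1, the TOP-binding repressor, measured 416, 341 and 347 CPM in A549 clean air and 198, 149 and 208 in complete smoke, and fell by 0.99 (adjusted p = 0.00452) and by 1.29 in filtered smoke (adjusted p = 0.0012). In BEAS-2B its values of -0.58 and -0.86 did not pass (adjusted p = 0.191 and 0.0622, the second 0.0161 with the replicate block). EIF4EBP2, a repressor of cap-dependent initiation, fell by 0.70, 1.24, 1.19 and 1.32 (adjusted p = 0.0494, 0.00451, 0.00276 and 0.00245), and MAF1, which represses RNA polymerase III, rose by 0.85, 0.99, 1.23 and 1.40 (adjusted p = 0.0289, 0.0112, 0.016 and 0.00955).

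Of 57 ribosome biogenesis factors, 12 rose and 3 fell in A549 complete, 21 and 6 in A549 filtered, 23 and 0 in BEAS-2B complete and 25 and 2 in BEAS-2B filtered smoke, with medians of 0.29, 0.33, 0.59 and 0.55. Among all tested genes 15.6, 23.1, 21.5 and 23.6% rose and 16.9, 23.5, 19.5 and 24.9% fell. With the replicate block 28 rose and 6 fell in A549 complete, 32 and 8 in BEAS-2B complete and 32 and 10 in BEAS-2B filtered smoke, so the count of 0 fallen does not hold with it. The shares of all tested genes that rose with the block were 27.3, 30.4 and 31.9% there. Fallen with it were 4162 of all 15244 tested genes in A549 complete smoke. In BEAS-2B 5350 and 5731 of all 16356 fell in complete and filtered smoke. In A549 filtered smoke the block gave 30 risen and 8 fallen factors, against 4641 and 4765 of all tested genes. EIF6, which keeps new large subunits from joining early, rose by 0.96, 1.13, 1.99 and 1.98 (adjusted p = 0.0243, 0.00902, 0.0083 and 0.00791), and FBL, the rRNA methyltransferase, by 0.78, 0.93, 1.29 and 1.24. POLR1A, the largest subunit of RNA polymerase I, fell in A549 by 1.13 and 1.49 (adjusted p = 0.00408 and 0.00102) and had -0.35 and -0.26 in BEAS-2B, which did not pass.

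The 17 genes for stalled ribosomes and their quality control had medians below 0, -0.22, -0.25, -0.30 and -0.34, with 0 risen and 2 fallen, 1 and 6, 1 and 1, and 2 and 2. Over all tested genes 15.6, 23.1, 21.5 and 23.6% rose and 16.9, 23.5, 19.5 and 24.9% fell. Under the replicate block A549 complete smoke had 3 risen and 7 fallen, BEAS-2B complete smoke 4 and 8 and BEAS-2B filtered smoke 4 and 9. For all tested genes the block gave 4159 and 4162 of 15244, and 4965 and 5350 and then 5217 and 5731 of 16356. GIGYF2, which blocks initiation on messages with collided ribosomes, fell by 1.30, 1.44, 1.35 and 1.49 (adjusted p = 0.00603, 0.00258, 0.00458 and 0.00362). The short gene EDF1, a sensor of collisions, rose by 1.03, 1.50 and 1.40 outside A549 complete smoke, where its 0.72 had an adjusted p of 0.0553 (0.00239 with the replicate block).

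**Figure D5:**
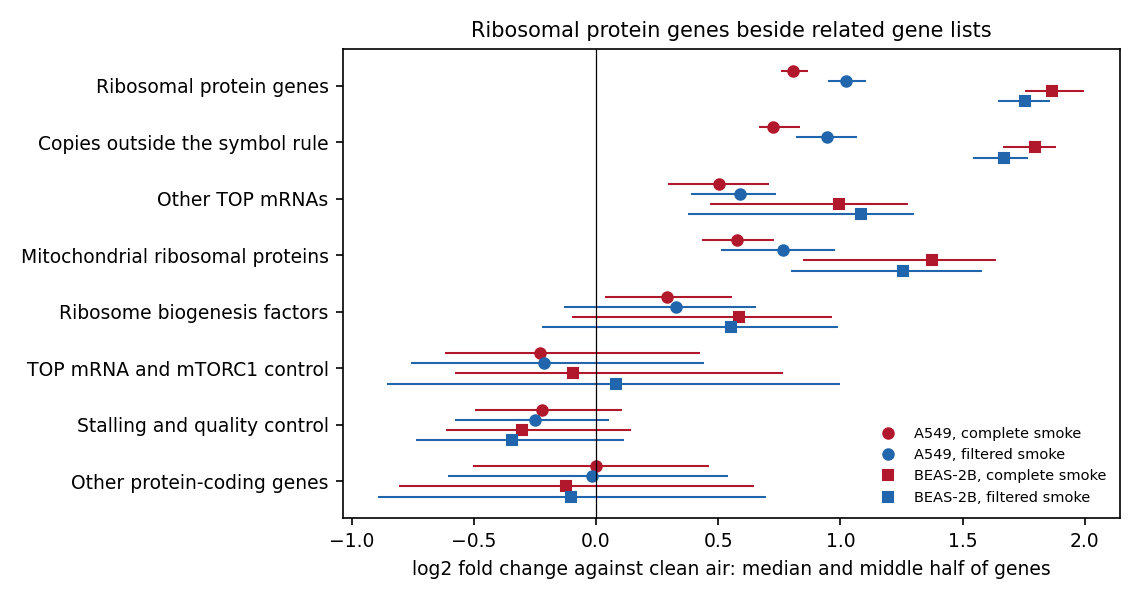
Median (symbol) and interquartile range (line) of the log2 fold changes against clean air for the 78 tested ribosomal protein genes, related gene lists and other protein-coding genes, in both lines and both smokes. The ribosomal protein genes have the highest median in all 4 comparisons (0.81, 1.02, 1.86 and 1.75), and the medians of the stalling genes lie below 0.

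Mitochondrial ribosomal protein genes, which serve the separate ribosome of mitochondria, also rose in part: 19 of 76 rose and 2 fell in A549 complete, 52 and 2 in A549 filtered, and 62 and 63 of 77 in BEAS-2B complete and filtered with 0 fallen. Their medians were 0.58, 0.77, 1.38 and 1.25, and with the replicate block 57 rose in A549 complete smoke (27.3% of all tested genes). Without the block 15.6, 23.1, 21.5 and 23.6% of all tested genes rose and 16.9, 23.5, 19.5 and 24.9% fell. Annotated ribosomal protein pseudogenes, whose sequence is near that of the genes, had medians of 0.80, 0.98, 1.46 and 1.41 among the 96 (A549) and 156 (BEAS-2B) tested, with 28, 56, 94 and 88 risen and 0, 2, 5 and 5 fallen, and 56 risen in A549 complete smoke with the replicate block. All 1586 of them together held between 0.0322 and 0.189% of the gene counts of a library, so few uniquely mapped reads were assigned to them. Reads that fit a gene and its pseudogenes equally well are counted as multimapping and left out, so the levels of genes with close pseudogenes can be too low by an unmeasured amount.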

How the data were processed

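The deposited values are read counts per gene. The submitters' processing notes name STAR 2.7.10b and GRCh38, and the annotation release is not given in the sources used here. The labels' protocols name Trizol extraction and TruSeq mRNA libraries. The count column of the strand with 11.7 to 17.1 times the counts of the other was used. Members and lists were chosen with earlier results of these data known. In R 4.3.3, genes were filtered with filterByExpr, scaled by TMM and tested by edgeR 4.0.16 (quasi-likelihood, robust) over the 9 libraries of a line, or all 18 for line differences, with Benjamini-Hochberg adjustment over all tested genes at 0.05. Positions, coding lengths and exon overlaps are from GENCODE v29 (58225 of 62649 IDs). Coding length replaced exonic length in the length bins, because some annotated transcripts are implausibly long. Named genes were 20 set members, the 4 highest and 4 lowest per comparison, those that failed where most passed, and 2 highest and 2 lowest of other lists. Alternatives were other scalings and filters, DESeq2 1.42.0, the replicate block, GC and length offsets (mgcv 1.9.3), counts ignoring strand and libraries left out. Same-numbered A549 libraries correlated at 0.22 or more in their deviations from group means, and BEAS-2B ones from -0.13 to 0.67. The block was run for every comparison and for the line differences. Number 2 of BEAS-2B had -0.13 between complete smoke and clean air, so the correlations do not bear out a pairing in that comparison. The test was also run on simulated counts with 200 changed genes. Those were drawn without shifts of single libraries, so that run does not cover the library differences seen here. Some genes are not reported here.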

Additional observations from a re-analysis of the deposited data

How the results depend on the processing

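Under every alternative, the medians of the ribosomal protein genes against clean air stayed above 0 in both lines: 0.61 to 0.98 (A549 complete), 0.76 to 1.25 (A549 filtered), 1.23 to 2.63 (BEAS-2B complete) and 1.13 to 2.38 (BEAS-2B filtered). Leaving out each library in turn, between 0 and 74, 59 and 76, 46 and 75, and 45 and 76 genes passed in those comparisons, 0 and 0 between complete and filtered smoke in each line, 0 and 65 for the line difference in complete smoke and 0 and 1 for that in filtered smoke. Over all tested genes the ranges against clean air were 1422 to 7021, 4006 to 9015, 2916 to 9026 and 3652 to 9276. For the line differences they were 87 to 797 (complete) and 47 to 224 (filtered). With the replicate block 75, 77, 75 and 75 passed against clean air, 73 for the line difference in complete and 66 for that in filtered smoke, and 74 and 64 with the block and offsets for GC content and length. For the line difference in complete smoke, 1 passed by library size alone (RPL22, lower), 23 without a low-count filter, 8 with DESeq2, 7 with the offsets, 1 with counts that ignore strand, and 74 without BEAS-2B clean-air replicate 1 and complete replicate 3. For filtered smoke the counts were 1 by library size alone, 1 without the filter, 1 ignoring strand and 25 without those libraries. By library size alone, 45 of all tested genes were higher and 1526 lower (complete), and 28 and 794 (filtered). For the other settings here, and the block with offsets, numbers over all tested genes are not set beside the counts. Those counts are therefore not a result about the ribosomal protein genes alone. By library size alone the median of all genes in BEAS-2B moved to -0.75 and -0.74 (A549: -0.10 and -0.15), with 1531 higher and 6835 lower against 3517 and 3187 (complete) and 1663 and 7415 against 3867 and 4080 (filtered). The members' medians were then 1.23 and 1.13, and RPL22 turned to -0.61 in complete smoke and passed. In A549 that scaling gave 1586 higher and 2984 lower against 2371 and 2580 (complete), and 2596 and 4253 against 3524 and 3588 (filtered). The causes of these differences were not tested. All genes called also moved by over 1.5 times with the block in A549 complete smoke (4159 higher and 4162 lower) and BEAS-2B complete smoke (4965 and 5350). For the line differences all genes called went from 100 higher and 208 lower to 1827 and 1714 (complete) and from 55 and 91 to 1406 and 1336 (filtered). Against clean air the block changed the call of no ribosomal protein gene beyond those given with a blocked p in the text. RPS10 and RPL36A, which share most of their exons with read-through genes, had few counts of their own, so their values are uncertain.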
